A study of Mus musculus with 9 samples.

Results

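The Sprouty and SPRED families of RAS-ERK inhibitors were examined through 6 genes: Spry1, Spry2 and Spry4 of the Sprouty family, Spred1 and Spred2 of the SPRED family, and Etv5, a transcription factor of the ETS family. Members were chosen by gene symbol, as the rows of the deposited count matrix whose Ensembl identifiers carry these symbols, and all 6 were found among its 47643 genes. RNA was sequenced from bone marrow-derived mast cells (BMMCs), which were grown from C57BL/6 mouse marrow for at least 4 weeks in medium with 30% conditioned medium of WEHI-3 cells, a myelomonocytic leukaemia line that secretes IL-3, and 20% serum. The 9 libraries formed 3 groups of 3. Control cells were untreated. IgE+BSA cells were sensitised with IgE against the hapten DNP and stimulated with DNP-BSA, the antigen that crosslinks the bound IgE. IgE+BSA+Luteolin cells were stimulated in the same way and also received luteolin, a plant flavone, for which the labels give 10 uM and 24 h. The same dose and time stand in the labels of all 9 libraries, Control included, so the group names are taken from the treatment label, and the duration of the antigen stimulus before RNA was taken is not given in the sources used here. The sources do not make clear whether luteolin came before or after the antigen, and no group received luteolin without stimulation. The labels do not say whether the 3 libraries of a group came from separate cultures or animals, so the p-values below measure the spread between these samples, which may be technical.

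Crosslinking of the IgE receptor and signalling by the growth factor receptor KIT both activate RAS in mast cells, and RAS passes the signal through RAF and MEK to the kinase ERK. Sprouty and SPRED proteins are brakes on this route: both share a cysteine-rich C-terminal domain that brings them to membranes, SPRED proteins recruit neurofibromin, which switches RAS off, and Sprouty proteins bind adaptors, RAF and ubiquitin ligases. Several of these genes are themselves transcribed in response to ERK, which makes them feedback inhibitors, and Etv5, a PEA3-group ETS factor, is likewise a known ERK-responsive gene in many tissues that the repressor Capicua holds down.

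In the GRCm38 assembly, by the GENCODE M21 annotation, Spry1 (ENSMUSG00000037211) lies at chr3:37639947-37644598 on the plus strand and Spry2 (ENSMUSG00000022114) at chr14:105891947-105896819 on the minus strand. The longest transcript of each has 2 exons. Spred1 (ENSMUSG00000027351) lies at chr2:117121374-117182279 and Spred2 (ENSMUSG00000045671) at chr11:19924375-20024026, both on the plus strand with 7 exons, and Etv5 (ENSMUSG00000013089) at chr16:22381309-22439719 on the minus strand with 13. All members are protein-coding, and the annotation names no pseudogene of any of them. The antisense gene that overlaps Spry1 reached at most 2 counts in any library.

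RefSeq start sites on GRCm38.p6 were matched for 5 of the 6 members. The 250 bases before the start are shown for Spry1 and Spry2, which had the largest changes with luteolin and with stimulation among the 5 members that passed the filter on low counts. They are also shown for the second annotated start of Etv5, which lies inside the span of the GENCODE gene. Capitals mark matches, on either strand, to TGAATG, the 6-base core of the Capicua octamer TGAATGNA. That core was searched after the sequences had been read, and the Spry1 and Spry2 windows hold none. Positions count from -1 just before the start.
Spry1, chr3:37639697-37639946, plus strand: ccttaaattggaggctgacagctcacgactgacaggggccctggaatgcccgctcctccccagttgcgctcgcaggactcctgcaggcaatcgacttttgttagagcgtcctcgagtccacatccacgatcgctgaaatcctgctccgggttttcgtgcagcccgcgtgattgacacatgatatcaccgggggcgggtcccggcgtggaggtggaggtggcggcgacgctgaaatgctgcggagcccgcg
Spry2, chr14:105896820-105897069, minus strand: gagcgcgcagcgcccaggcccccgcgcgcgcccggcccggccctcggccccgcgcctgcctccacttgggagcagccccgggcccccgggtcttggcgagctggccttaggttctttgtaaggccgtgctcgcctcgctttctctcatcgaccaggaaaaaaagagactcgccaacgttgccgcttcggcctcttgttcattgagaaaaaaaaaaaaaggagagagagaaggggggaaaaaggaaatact
Etv5, second start, chr16:22438369-22438618, minus strand: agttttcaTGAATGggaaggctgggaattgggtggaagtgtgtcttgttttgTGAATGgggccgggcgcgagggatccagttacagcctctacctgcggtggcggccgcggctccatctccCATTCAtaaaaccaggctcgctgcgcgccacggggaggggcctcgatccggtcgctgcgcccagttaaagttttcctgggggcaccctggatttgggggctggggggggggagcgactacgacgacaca

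The window before the second Etv5 start held TGAATG 3 times, at positions -242, -198 and -129, the last on the opposite strand. Of all 32851 RefSeq start windows of 300 bases (250 before and 50 after the start), 12.7% held it at least once and 0.17% held it 3 or more times. No member's window held the full octamer TGAATGNA, which 3.82% of all windows hold. Among the other motifs searched, the Spry2 window held the ETS core CCGGAA once, 34 bases after the start, as 14.9% of all windows do.
Spry2, chr14:105896772-105896795, minus strand: tcatctatcCCGGAAtccgggagg
The Spred2 window held TGACG, the shared part of cAMP response elements, once, 51 bases before the start and read on the opposite strand, as 20.8% of all windows do.
Spred2, chr11:19924382-19924404, plus strand: ctgggaagaCGTCAtcgcttccg
Capitals mark the match in both stretches. The windows of Spry1, Spred1 and the first Etv5 start held none of the motifs searched, which also comprised the full cAMP response element TGACGTCA (in 1.79% of all windows; it contains TGACG), the AP-1 site TGANTCA (7.81%), the EGR site GCGNGGGCG (5.55%) and the CArG box of serum response factor (1.63%). These are letter matches in short windows and were not measured as binding.

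Total counts per library ranged from 9515004 in Control replicate 2 to 24605689, and 3 counts corresponded to 0.122 to 0.315 CPM (counts scaled to the size of the library) across libraries, which covers counting error only. Levels are given as CPM after scaling by TMM factors from edgeR, which adjust for library composition. All 12 markers of mast cells were detected in every library. Control replicate 1 stood apart from the other 2 Control libraries: the summed level of 7 neutrophil markers was 249.7 CPM in it but 7.36 and 5.89 CPM in Control replicates 2 and 3, with Camp and Elane at 0 in Control replicate 2, against 179 to 195 CPM in IgE+BSA and 206 to 238 CPM in IgE+BSA+Luteolin. Its summed mast cell markers were also higher, at 84424 CPM against 55511 and 55713 CPM. The chymase genes Mcpt4 (1752 against 201 and 197 CPM) and Cma1 (10122 against 4049 and 3555 CPM) were among those higher. Kit went the other way, at 1749 against 2306 and 2481 CPM, as did Ms4a2, Tpsab1, Gata2 and Mitf. The 3 basophil markers summed to 1878 CPM against 1717 and 1652 CPM and did not move together: Mcpt8 was at 432 against 21.8 and 18.7 CPM, Prss34 at 759 against 650.5 and 611 CPM, and Cd200r3 at 688 against 1045 and 1023 CPM. The eosinophil markers summed to 37.4 CPM against 12.98 and 10.1 CPM, with Epx at 0 in Control replicates 2 and 3. Siglecf, another of them, went the other way, at 4.14 CPM in Control replicate 1 against 12.9 and 10.1 CPM. Markers of dendritic cells, lymphocytes and stromal cells summed to at most 0.678, 3.80 and 2.33 CPM in any library, those of macrophages to 303 to 369 CPM and those of erythroid cells and megakaryocytes to 1738 to 2182 CPM. The last sum was carried mostly by Itga2b (1730.2 to 2170.3 CPM), with the globin gene Hba-a1 at 0 to 0.932 CPM, and the macrophage sum by Adgre1 and Lyz2, with C1qa at 0 in 8 of the 9 libraries. The counts of Control replicate 1 differed from those of replicates 2 and 3 by a chi-square of 88.1 and 146 per degree of freedom, whereas the other pairs of replicates differed by 4.05 to 15.2. The comparisons with Control of the 5 tested members and of the pathway lists are therefore given with all Control libraries, without Control replicate 1, and against it as the single Control library. In the last of these fits Control has no spread of its own: the spread comes from the 3 stimulated libraries alone and the lone library is assumed to vary as they do, so its adjusted p-values and counts describe that library and do not measure variation among Control samples.

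With luteolin, the transcripts of all 4 tested inhibitors were lower in stimulated cells. Against IgE+BSA, Spry2 fell 6.79-fold, Spry1 3.83-fold, Spred2 1.55-fold and Spred1 1.50-fold. Stimulation alone had raised Spry1 5.90-fold and Spry2 4.19-fold above Control. Etv5 did not pass the threshold in either comparison, and its levels lay slightly higher with luteolin. Differences were assessed in edgeR, by its quasi-likelihood test and Benjamini-Hochberg adjustment over the 11560 genes whose median CPM over the 9 libraries was above 1, with a threshold of 0.05 on the adjusted p. Of the members, 5 of 6 entered this test, and Spry4 was below the filter. The 4 called in IgE+BSA+Luteolin against IgE+BSA were all lower, while 21.9% of all genes tested were called lower, 18.1% higher and 40% in either direction. Their groups did not overlap, as was the case in the lower direction for 26.2% of all genes tested. In bulk RNA, fewer cells of a type and less RNA per cell cannot be told apart. Markers of cell types also moved in this comparison: summed mast cell markers were 59403 to 66266 CPM in IgE+BSA and 70992 to 82261 CPM with luteolin, with 7 of 12 called higher and 3 lower. All 3 basophil markers were called higher, at 1446 to 1504 CPM summed in IgE+BSA and 1609.5 to 1754 CPM with luteolin, as were 2 of 7 neutrophil markers. Of 3 tested eosinophil markers, Siglecf was called lower, by a log2 fold change of -1.07, and the summed eosinophil level was 25.4 to 29.0 CPM in IgE+BSA and 21.7 to 29.1 CPM with luteolin. The part of these shifts in the members' values was not tested.

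**Figure D1:**
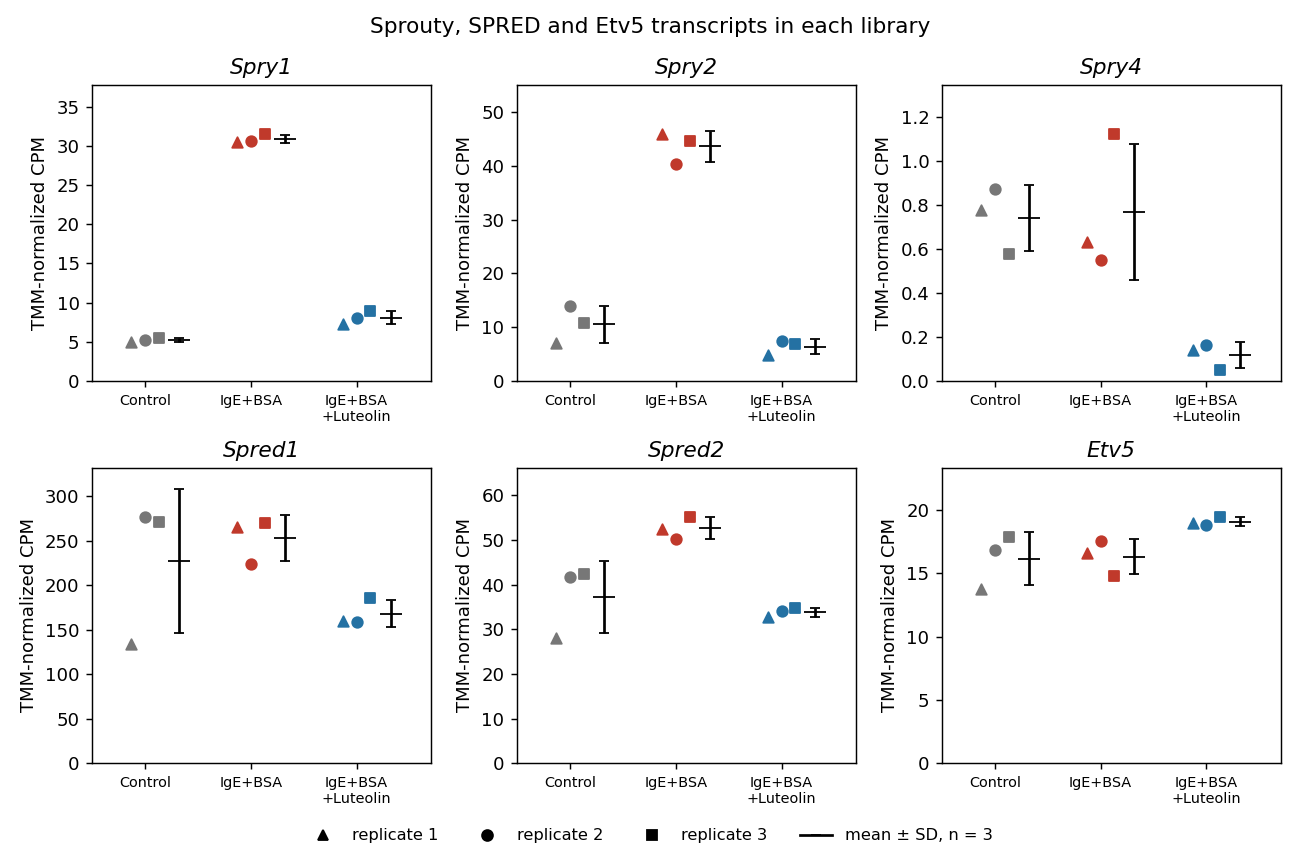
TMM-normalized CPM (y axis, from 0, scale differs between panels) of each of the 6 genes in the 9 libraries, by group (x axis); symbols mark the replicate, and bars give the mean ± SD of 3 libraries. Spry1 and Spry2 stand high in the 3 IgE+BSA libraries (30.6 to 31.5 and 40.3 to 45.9 CPM), Spred1 and Spred2 are low in Control replicate 1 (triangle), and Etv5 stays between 13.8 and 19.4 CPM.

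Spry1, a Sprouty inhibitor that acts downstream of receptor tyrosine kinases, was measured at 5.01, 5.23 and 5.44 CPM in Control replicates 1, 2 and 3. In IgE+BSA its levels were 30.6, 30.7 and 31.5 CPM, and in IgE+BSA+Luteolin 7.27, 7.97 and 8.94 CPM. The 3 IgE+BSA libraries lay above every other library, and no group overlapped another. The log2 fold change was 2.56 (SE 0.12, adjusted p = 0.000173, edgeR, n = 3 per group) in IgE+BSA against Control and -1.94 (SE 0.10, adjusted p = 1.04e-10) in IgE+BSA+Luteolin against IgE+BSA. The rise was 2.48 without Control replicate 1 and 2.60 against that library alone. Spry1 was thus the member whose Control level depended least on which Control library was taken. Against Control, IgE+BSA+Luteolin was higher by a log2 fold change of 0.62 (SE 0.17), which missed the threshold (adjusted p = 0.0973). It passed without Control replicate 1 (0.58, adjusted p = 0.0113), where 29.9% of all genes tested were called higher, and against that library alone it was 0.68 (adjusted p = 0.0533). With all 3 Control libraries Spry1 was higher without overlap, as were 13.6% of all genes tested.

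Spry2, the second Sprouty inhibitor and a known partner of the ubiquitin ligase CBL, was measured at 7.01, 13.9 and 10.7 CPM in Control. In IgE+BSA it reached 45.9, 40.3 and 44.7 CPM, and in IgE+BSA+Luteolin 4.80, 7.49 and 6.86 CPM. The IgE+BSA libraries again lay above all others, while the Control and luteolin libraries overlapped. Spry2 rose by a log2 fold change of 2.07 with stimulation (SE 0.23, adjusted p = 0.0048) and was lower by -2.76 with luteolin (SE 0.13, adjusted p = 1.18e-11, edgeR), the largest change of the tested members in that comparison. Its rise came to 1.82 without Control replicate 1 and to 2.62 against that library alone. Luteolin-treated cells held a mean of 6.38 ± 1.41 CPM (SD, n = 3) against 10.5 ± 3.43 in Control, a log2 fold change of -0.71 (SE 0.29) that missed the threshold (adjusted p = 0.204). It was called lower without Control replicate 1, at -0.92 (SE 0.19, adjusted p = 0.00056), and against that library alone it was -0.13 (adjusted p = 0.769).

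Spry4, a Sprouty inhibitor that is also transcribed in response to ERK in many cells, was scarcely detected. The gene (ENSMUSG00000024427) lies at chr18:38586247-38601415 on the minus strand with 2 exons, and the 2 small RNA genes that overlap it had 0 counts. Its counts were 16, 9 and 14 in Control, 14, 11 and 23 in IgE+BSA, and 3, 4 and 1 in IgE+BSA+Luteolin, at a median of 0.592 CPM over the 9 libraries. All 3 luteolin libraries lay below the other 6, and the Control and IgE+BSA libraries overlapped. How many genes below the filter had such an order was not computed, so it is a description only. In the fit without a filter on low counts, where Spry4 could be tested, the log2 fold change was -2.61 in IgE+BSA+Luteolin against IgE+BSA (SE 0.75, adjusted p = 0.0035, edgeR), on 8 counts against 48 in all; in that fit 11.9% of 22025 genes were called lower. It was 0.11 (SE 0.56, adjusted p = 0.954) in IgE+BSA against Control and -2.51 (SE 0.77, adjusted p = 0.0839) in IgE+BSA+Luteolin against Control. With 39 counts in all Control libraries and 48 in all IgE+BSA libraries, smaller differences in Spry4 were not detectable at this depth.

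Spred1, a SPRED inhibitor that binds neurofibromin, was the member that varied most within Control. Its levels were 135, 277 and 271 CPM in Control replicates 1, 2 and 3, then 266, 224 and 270.0 CPM in IgE+BSA, and 159.8, 159 and 186 CPM in IgE+BSA+Luteolin. The luteolin libraries lay below all IgE+BSA libraries and below Control replicates 2 and 3, but above Control replicate 1. Spred1 was called lower in IgE+BSA+Luteolin against IgE+BSA (log2 fold change -0.59, SE 0.08, adjusted p = 1.14e-05, edgeR). The call was lost when all 9 libraries shared 1 estimate of the spread (-0.59, adjusted p = 0.159). Against Control, stimulation gave 0.16 (SE 0.26, adjusted p = 0.789), which turned to -0.16 without Control replicate 1 (adjusted p = 0.122) and was 0.89 against that library alone (adjusted p = 6.83e-05). The comparison of luteolin with Control also turned with this library: -0.44 (adjusted p = 0.344) with all 3 Control libraries, -0.71 without Control replicate 1 (adjusted p = 5.51e-07), and 0.32 in the other direction against it alone (adjusted p = 0.0269). The neutrophil markers split the same Control libraries in the other direction, at 249.7 CPM in Control replicate 1 and 7.36 and 5.89 CPM in the other 2. In IgE+BSA they were at 179 to 195 CPM, beside Spred1 at 224 to 270.0 CPM. The summed mast cell markers also split the Control libraries, at 84424 CPM against 55511 and 55713 CPM. Among these markers, Kit, Ms4a2, Tpsab1, Gata2 and Mitf were instead lower in Control replicate 1. Other listed genes were also lower there, such as Braf, or higher, such as Map2k2. The part of either set of markers in the Spred1 and Spred2 values was not tested.

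Spred2, the second SPRED inhibitor, was likewise lowest in Control replicate 1. It was measured at 28.0, 41.6 and 42.4 CPM in Control, 52.5, 50.2 and 55.2 CPM in IgE+BSA, and 32.8, 34.1 and 34.8 CPM in IgE+BSA+Luteolin. The IgE+BSA libraries lay above all 6 others, and the luteolin libraries fell between Control replicate 1 and the other 2 Control libraries. The log2 fold change with luteolin was -0.63 (SE 0.07, adjusted p = 2.56e-06, edgeR). Stimulation gave 0.50 (SE 0.17), which missed the threshold (adjusted p = 0.157) although the groups did not overlap. Among all genes tested, 16.6% were higher in IgE+BSA than in Control without overlap. Spred2 was called higher without Control replicate 1, at 0.28 (SE 0.08, adjusted p = 0.0134), where 22.6% of all genes tested were called higher, and against that library alone at 0.89 (adjusted p = 6.77e-05). Against Control, luteolin gave -0.14 (adjusted p = 0.619), -0.32 without Control replicate 1 (adjusted p = 0.00393) and 0.27 against it alone (adjusted p = 0.109).

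Etv5, the ETS factor, showed another pattern from the inhibitors. Its levels were 13.8, 16.9 and 17.8 CPM in Control, 16.6, 17.5 and 14.8 CPM in IgE+BSA, and 18.9, 18.8 and 19.4 CPM in IgE+BSA+Luteolin. The luteolin libraries lay above all 6 others, and Control and IgE+BSA overlapped. The log2 fold change was 0.23 with luteolin against IgE+BSA (SE 0.10, adjusted p = 0.0784, edgeR), and 24.1% of all genes tested were higher in that comparison without overlap. It was 0.01 (SE 0.15, adjusted p = 0.972) with stimulation, and the sign of this value turned with DESeq2 and under each of the 3 other scalings, from -0.02 to -0.17. Against Control the luteolin libraries differed by 0.23 (SE 0.14, adjusted p = 0.345), which passed against Control replicate 1 alone (0.47, adjusted p = 0.0345), where 11.6% of all genes tested were called higher, and in no other fit. With luteolin against IgE+BSA it was called under scaling by library size alone (0.34, adjusted p = 0.0101), which moved the median of all genes to 0.13, and under upper-quartile factors (0.30, adjusted p = 0.0204), which moved it to 0.0933. Whether Etv5 differed from the inhibitors in its response was not tested as such.

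**Figure D2:**
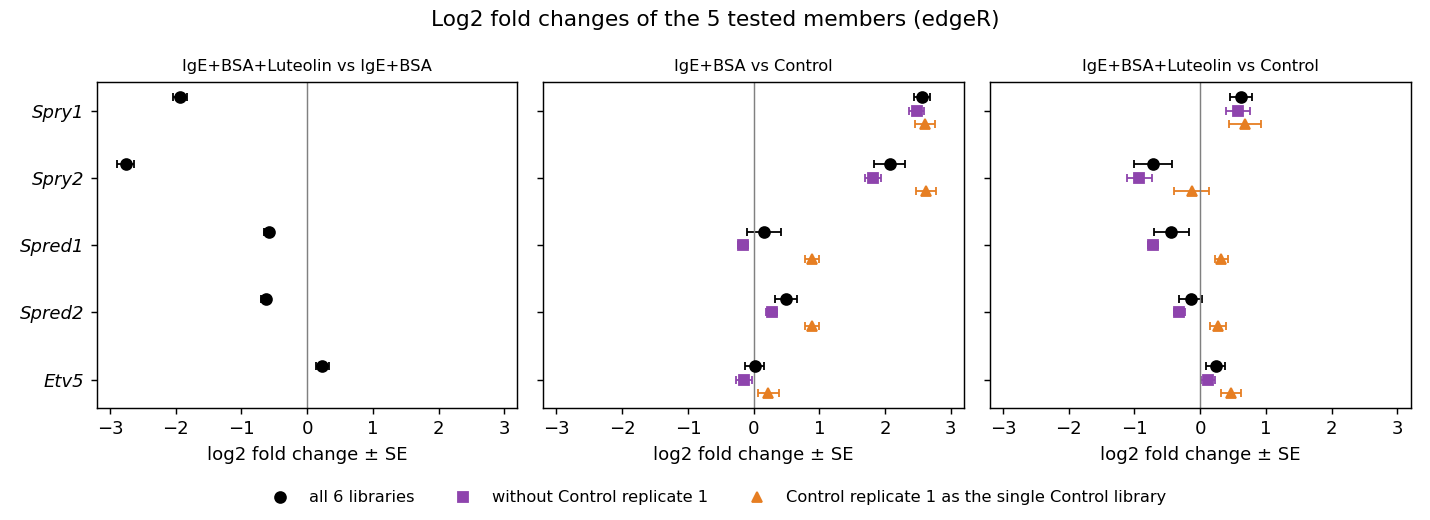
Log2 fold changes (x axis) with standard errors for the 5 tested genes (y axis) in the 3 comparisons, from edgeR. Circles use all 6 libraries, squares leave out Control replicate 1 and triangles use Control replicate 1 as the single Control library; for Spred1 the last 2 fall on opposite sides of 0 in both comparisons with Control, and for Spry1 they lie closest together.

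In IgE+BSA against Control, 2 of the 5 tested members were called and both were higher (Spry1 and Spry2), while 2.25% of all genes tested were called higher and 3.27% in either direction. Without Control replicate 1, 3 were called higher, where 22.6% of all genes were called higher and 22.4% lower. With that library as the only Control, whose spread is then assumed, the count was 4, where 23.1% of all genes were called higher and 19.2% lower. In IgE+BSA+Luteolin against Control, 0 of the 5 were called by edgeR, where 3.04% of all genes tested were. At an unadjusted p below 0.05 there were 2 (Spry1, higher, and Spry2, lower). DESeq2 called 1 (Spry1) and limma 0. Here and below, counts by DESeq2, by limma or at an unadjusted p have no share of all genes beside them. For the comparisons with Control, all genes called by DESeq2 are counted in the last section. The counts by limma and at an unadjusted p stand without a background. Without Control replicate 1, 4 were called, Spry1 higher and Spry2, Spred1 and Spred2 lower, where 60% of all genes were called and 30.1% were called lower. With it as the only Control, 2 were called, Spred1 and Etv5, both higher, where 11.6% of all genes were called higher and 9.55% lower. Both comparisons with Control share the same Control libraries, and both comparisons with IgE+BSA share those.

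Divided by exon length, the levels of the 6 genes spanned a wide range. In IgE+BSA, Spred1 led at 37.3 ± 3.73 CPM per kb (SD, n = 3), followed by Spry2 at 20.9 ± 1.41, Spred2 at 11.4 ± 0.538, Spry1 at 10.6 ± 0.175, Etv5 at 3.97 ± 0.338 and Spry4 at 0.162 ± 0.065. Spred2 and Spry1 were separated there by 10.9 CPM per kb in the lowest Spred2 library and 10.8 in the highest Spry1 library, which is less than the SD of Spred2. In Control the order was Spred1 (33.6 ± 11.9), Spred2 (8.09 ± 1.75), Spry2 (5.04 ± 1.64), Etv5 (3.93 ± 0.514), Spry1 (1.80 ± 0.0739) and Spry4 (0.156 ± 0.0317). There Spry2 overlapped both of its neighbours in the order. With luteolin it was Spred1 (24.8 ± 2.21), Spred2 (7.33 ± 0.22), Etv5 (4.64 ± 0.0832), Spry2 (3.06 ± 0.674), Spry1 (2.77 ± 0.289) and Spry4 (0.0245 ± 0.0127), and the levels of Spry2 and Spry1 overlapped.

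The balance between both families followed from these levels. The 3 Sprouty genes together made up 16.8%, 14.7% and 12.7% of the summed CPM per kb of the 5 inhibitors in the Control libraries. In IgE+BSA they made up 39.2%, 40.6% and 38.6%, and in IgE+BSA+Luteolin 13.6%, 17.1% and 15.5%. The share was higher in the 3 IgE+BSA libraries than in all 6 others, and the Control and luteolin libraries overlapped. It restates the changes of Spry1 and Spry2 above and was not tested.

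**Figure D3:**
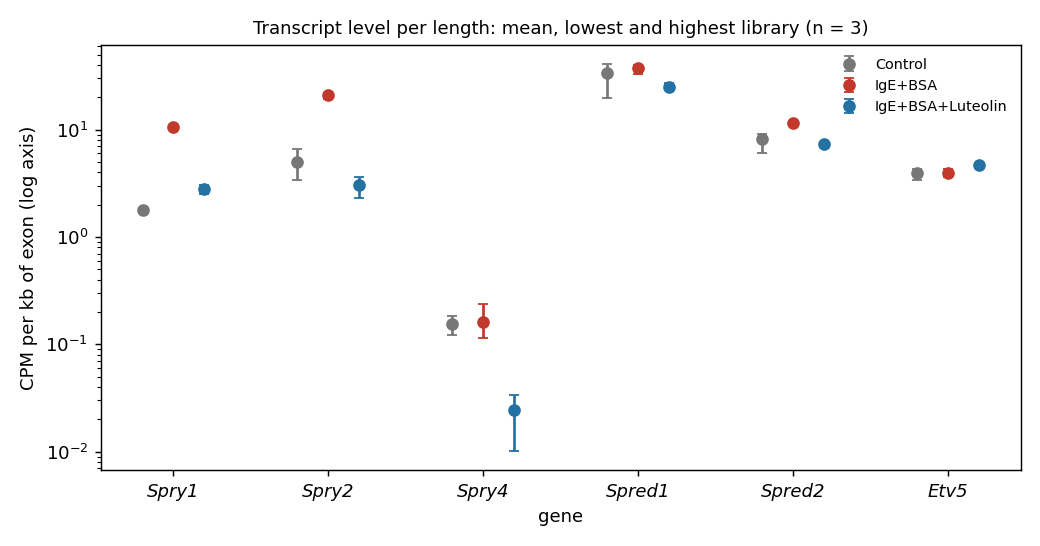
CPM per kb of exon (y axis, log scale) of the 6 genes (x axis) in the 3 groups; points are means of 3 libraries and bars run from the lowest to the highest library. Spred1 has the highest level in each group (24.8 to 37.3 CPM per kb on average), and Spry2 moves from 5.04 in Control to 20.9 in IgE+BSA and 3.06 with luteolin.

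For each member, the 3 genes of mean CPM of at least 5 with the most similar pattern were ranked by Pearson's r of log2 CPM over the 9 libraries. Spry1 was most like Gpr171 (r = 0.993), the nuclear receptor gene Nr4a3 (0.992) and the cytokine gene Tnf (0.989). Spry2 was most like Rassf5 and Rnf4 (0.994 each) and the cell cycle kinase gene Wee1 (0.993), and Spry4 was most like Tnfrsf12a (0.964), Xbp1 (0.962) and Sertad1 (0.959). The values for Spry4 rest on 1 to 23 counts per library.

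Spred1 was most like the kinase gene Map3k2 (0.996), Etnk1 (0.995) and Ythdf3 (0.991), and Spred2 was most like Tiparp (0.992), Ubn1 (0.991) and the growth factor gene Hgf (0.990). Etv5 was most like Osbp (0.987), 6720489N17Rik (0.952) and Gnb4 (0.951). Few genes resembled Etv5 closely: 4 had an r above 0.9, against 77 for Spry4, 174 for Spry1, 290 for Spry2, 569 for Spred1 and 344 for Spred2. Among the members themselves, Spry2 and Spred2 were most alike (0.931), then Spry1 and Spry2 (0.873) and Spred1 and Spred2 (0.869), and Etv5 had a negative r with each of the other 5 (-0.0362 to -0.806). All these values rest on 9 libraries in 3 groups with a split Control group, and they are descriptions only.

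**Figure D4:**
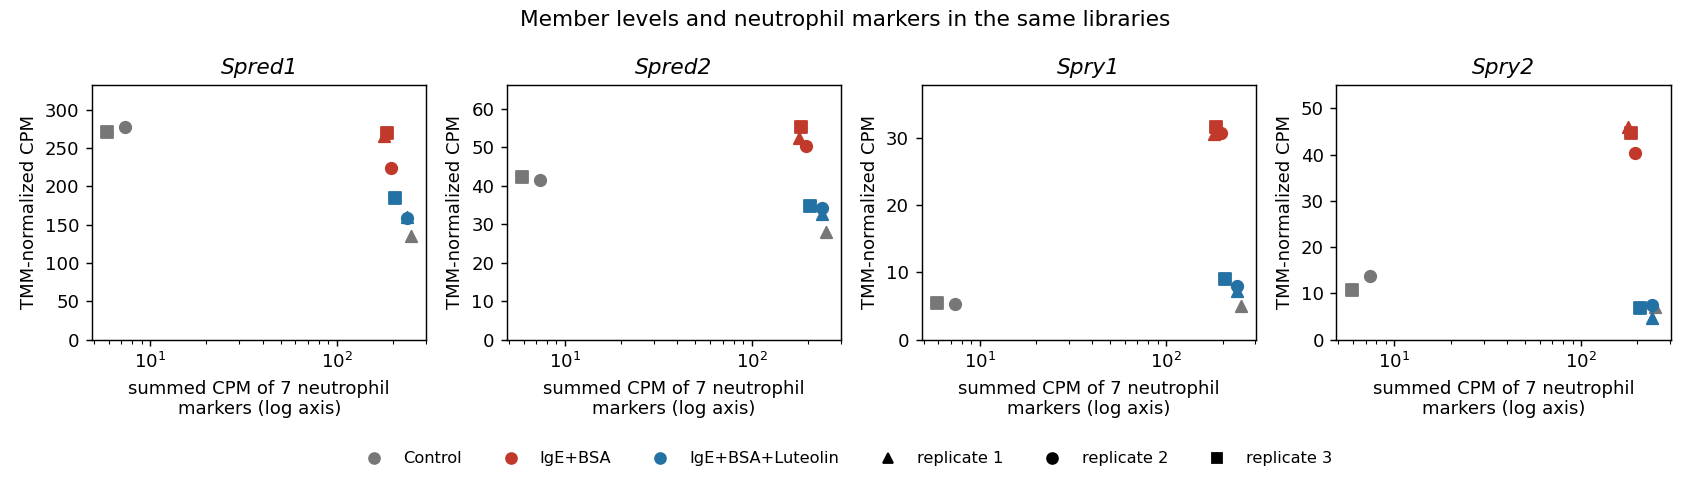
TMM-normalized CPM of Spred1, Spred2, Spry1 and Spry2 (y axes, from 0) against the summed CPM of 7 neutrophil markers (x axis, log scale) in each of the 9 libraries; colours give the group and symbols the replicate. Control replicates 2 and 3 lie alone at 7.36 and 5.89 CPM of markers, and Control replicate 1, at 249.7 CPM, has the lowest Spred1 and Spred2 levels, while Spry1 is similar in all 3.

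Of the rest of both families, Spred3 was tested. It was measured at -0.29 (log2 fold change, SE 0.20, adjusted p = 0.269) with luteolin against IgE+BSA and at -0.57 (SE 0.26, adjusted p = 0.272) with stimulation. Without Control replicate 1 the latter was -0.85 and called lower (adjusted p = 0.0012), and against that library alone it was -0.03 (adjusted p = 0.937). Luteolin against Control gave -0.86 (adjusted p = 0.147) for Spred3, -1.10 without Control replicate 1 (adjusted p = 7.97e-05) and -0.30 against it alone (adjusted p = 0.46). Spry3 was not analysed here. Among the PEA3-group factors and Capicua, the repressor of Etv5 and its relatives, Etv1 and Etv4 were below the filter. The other 3 genes were all called lower with luteolin, as 21.9% of all genes tested were: Atxn1l (-0.73, adjusted p = 1.43e-06) and Atxn1 (-0.49, adjusted p = 0.000379), which encode partners that stabilise Capicua, and Cic itself (-0.35, adjusted p = 0.000463, edgeR). With stimulation, 0 of these 3 were called by edgeR, DESeq2 or limma with all Control libraries (median log2 fold change 0.05), with 1 at an unadjusted p below 0.05. The direction turned with Control replicate 1: without it Atxn1l (-0.22) and Atxn1 (-0.22) were called lower and Cic was at 0.22 (adjusted p = 0.0617), where 22.4% of all genes were called lower, whereas against it alone all 3 were called higher (median 0.60), where 23.1% of all genes were. With luteolin against Control, edgeR called 0 of the 3 and limma 0, DESeq2 called 1, and 1 was at an unadjusted p below 0.05. Atxn1l (-0.92) and Atxn1 (-0.67) were called lower without Control replicate 1, as 30.1% of all genes were, and against it alone Cic was called higher (0.29), as 11.6% of all genes were.

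Genes for partners of Sprouty and SPRED proteins moved in both directions. Of 15 tested, 2 were called higher and 6 lower with luteolin, beside 18.1% and 21.9% of all genes tested, with a median log2 fold change of -0.13 against 0.02 over all genes tested. The largest changes were in Siah2 (-1.77, adjusted p = 2.90e-10), an E3 ligase that targets Sprouty2, Cbl (-0.47), Tesk1 (-0.45) and Cblb (-0.43), followed by Lztr1, which rose by 0.26 and encodes an adaptor that promotes degradation of RAS proteins. Nedd4, another ubiquitin ligase gene of the list, was at -0.13 (adjusted p = 0.0597). With stimulation 1 of 15 was called, Siah2, which rose by 1.15 (adjusted p = 0.0048), by 1.12 without Control replicate 1 and by 1.16 against it alone; DESeq2 called 3 of the 15 and limma 1. The count of the list depended on that library: without it 5 were called higher and 4 lower, beside 22.6% and 22.4% of all genes, and against it alone 11 higher and 1 lower, beside 23.1% and 19.2%.

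The RAS-ERK core, from adaptors to ERK, had 23 tested genes, of which 4 were called higher and 7 lower with luteolin (median -0.07), beside 18.1% and 21.9% of all genes tested. Among those called lower were the scaffold gene Ksr1 (-0.56), Braf (-0.47), the adaptor gene Gab2 (-0.43) and the exchange factor gene Sos1 (-0.39). With stimulation, 0 of 23 were called by edgeR and limma and 1 by DESeq2, with 6 at an unadjusted p below 0.05. When Control replicate 1 was left out, 9 were called higher and 3 lower, in a fit that called 45% of all genes tested, and against that library alone 11 higher and 4 lower, beside 23.1% and 19.2% of all genes.

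Other brakes on RAS-ERK included genes whose log2 fold changes were of the size of those of Spry1 and Spry2. Of 16 tested, 3 were called higher and 8 lower with luteolin, beside 18.1% and 21.9% of all genes tested, with a median of -0.29. The largest changes were in the genes of the ERK phosphatases Dusp6 (-3.03, adjusted p = 1.49e-15), Dusp4 (-2.22) and Dusp5 (-1.88), of Errfi1 (-2.85), an inhibitor of EGF receptor kinases, and of the ETS repressor Erf (-1.12). With stimulation 4 were called, all higher, where 2.25% of all genes were: Dusp4 (2.13, adjusted p = 0.00117), Dusp6 (1.98), Errfi1 (1.65) and Erf (0.76). DESeq2 called 6 brakes there and limma 4. Without Control replicate 1 these 4 were also called higher, at 2.28, 2.08, 1.49 and 0.74, among 7 brakes called higher and 3 lower, beside 22.6% and 22.4% of all genes. Against that library alone 8 were called higher and 4 lower, beside 23.1% and 19.2%. The 3 called higher with luteolin were Dusp7 (0.44), Pebp1 (0.27) and Rasal3 (0.18), named after their values were seen.

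The 8 tested transcripts used as readouts of ERK activity were all called lower with luteolin, as 21.9% of all genes tested were, with a median log2 fold change of -2.16. The largest changes were in Fosl1 (-3.58, adjusted p = 1.77e-08), Dusp6 (-3.03), Phlda1 (-2.59), Dusp4 (-2.22) and Ier3 (-2.11). Fos and Egr1 fell less, from means of 354 and 3255 CPM in IgE+BSA to 220 and 1884 CPM with luteolin. In Control their means were 37.0 and 839 CPM. Stimulation raised 6 of the 8 readouts, where 2.25% of all genes were called higher, led by Fos (3.25, adjusted p = 0.0033), Dusp4 (2.13), Dusp6 (1.98), Egr1 (1.95) and Phlda1 (1.90). DESeq2 called 7 and limma 6. All 8 were called higher without Control replicate 1, as 22.6% of all genes were, and 7 against that library alone, as 23.1% were. Spry1 and Spry2 are themselves ERK-responsive genes of this kind, whereas Etv5, also such a gene in other tissues, was not called in either comparison. Etv4, Ccnd1, Epha2 and Epha4 were below the filter.

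Against Control, luteolin-treated stimulated cells held less Errfi1 (-1.20, adjusted p = 0.0199) and Dusp6 (-1.05, adjusted p = 0.0152), the 2 brakes called there by edgeR, where DESeq2 called 4 and limma 2. Of the readouts, of which DESeq2 called 6 and limma 4, Fos was called higher by edgeR (2.56) and Ier3 (-1.05), Dusp6 and Myc (-0.86) lower, while 0.285% of all genes tested were called higher and 2.75% lower. No partner and no core gene was called by edgeR or limma, with 2 and 4 at an unadjusted p below 0.05, and DESeq2 called 1 and 2. These counts hold for the fit with all Control libraries. Without Control replicate 1, 4 partners were called higher and 5 lower, 6 core genes higher and 7 lower, 4 brakes higher and 7 lower, and 2 readouts higher and 4 lower, in a fit that called 29.9% of all genes higher and 30.1% lower. Against that library alone the counts were 6 and 1 for partners, 8 and 1 for the core, 1 and 6 for brakes, and 2 and 6 for readouts, beside 11.6% of all genes called higher and 9.55% lower.

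Of 6 tested receptor tyrosine kinase genes, Insr (-0.36), Fgfr1 (-0.21) and Igf1r (-0.19) were called lower with luteolin against IgE+BSA, where 21.9% of all genes tested were. Igf1r passed narrowly (adjusted p = 0.0498), and limma called 2 of the 6. Kit, the main growth factor receptor of mast cells, was measured at -0.10 (SE 0.05, adjusted p = 0.0987). The other 8 of the 14 listed receptor genes were below the filter, among them Egfr and Erbb2, which encode EGF receptor kinases. With stimulation, and with luteolin against Control, 0 of the 6 were called by any of the 3 tools with all Control libraries, and 0 had an unadjusted p below 0.05. Leaving out Control replicate 1, 1 was called higher and 3 lower with stimulation, and 1 higher and 4 lower with luteolin against Control, in fits that called 45% and 60% of all genes. Against that library alone 4 were called higher with stimulation, where 23.1% of all genes were, and 0 with luteolin against Control, where 1 had an unadjusted p below 0.05. The lists share genes, among them Dusp4 and Dusp6, which count as brakes and as readouts, Grb2 and Ptpn11 as partners and core, Nf1 and Rasa1 as partners and brakes, and Kit as partner and receptor.

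**Figure D5:**
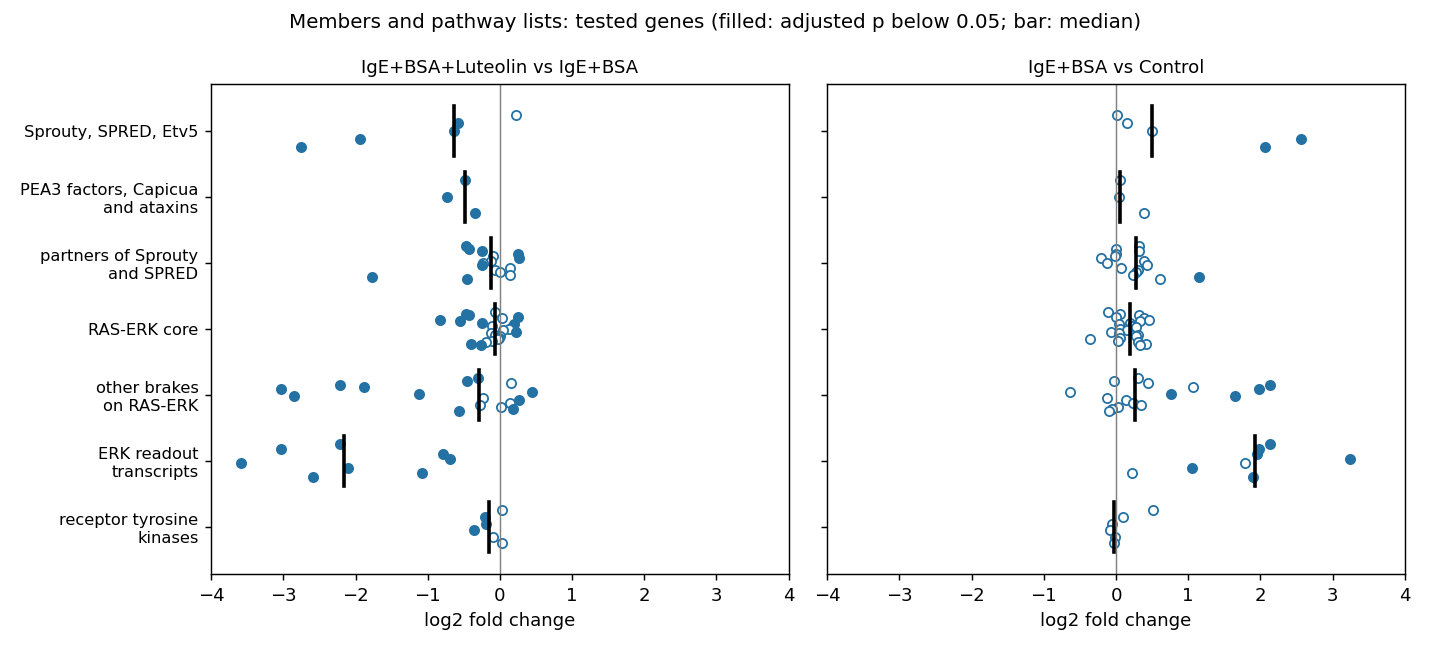
Log2 fold changes (x axis) of the tested members and of the genes in each pathway list (rows), with luteolin against IgE+BSA on the left and IgE+BSA against Control on the right; each circle is a gene, filled where its adjusted p is below 0.05, and the black bar is the median of the row. The row of ERK readouts lies lowest on the left (median -2.16) and highest on the right (median 1.92), and the RAS-ERK core has medians of -0.07 and 0.19; the right side uses all 3 Control libraries.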

How the data were processed

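Libraries were prepared by the authors with a stranded mRNA kit, reads were cleaned with HTStream and aligned with STAR 2.7.0f to mm10, per the study's methods and the submitters' processing notes. The values deposited by the authors are raw counts for each Ensembl gene, without filter or normalization, which the column names credit to htseq-count; the annotation release, the strand setting and the treatment of reads with several matches are not given in the sources used here. Symbols were matched for 47224 of 47643 identifiers.

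Tests were run in edgeR 4.0.16 under R 4.3.3, by a two-sided quasi-likelihood test with TMM factors on the 6 libraries of each comparison, for genes with a median CPM above 1, and with Benjamini-Hochberg adjustment over all of them. limma 3.58.1 and DESeq2 1.42.0 served as alternatives, and the scripts were tested on simulated data. Further alternatives covered scaling, filters, the number of libraries fitted together, a replicate block, gene length, the measure of likeness and each library left out in turn. Control replicate 1 as the single Control library was added after seeing the data. CPM per kb used the union of exons in GENCODE M21.

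All 6 members are named in each comparison, with at most 5 called genes of largest change per pathway list and the 3 genes most like each member. A gene of the RAS-ERK core that this rule would name is not reported here. The members, lists and tests were chosen with earlier results of these data known.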

Additional observations from a re-analysis of the deposited data

How the results depend on the processing

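With luteolin against IgE+BSA, the directions of the 5 tested members held under every alternative run, and the calls of Spry1, Spry2 and Spred2 did too. With all 9 libraries in a single fit, Spred1 lost its call (-0.59, adjusted p = 0.159) and 1093 genes were called in place of 4624. Etv5 was called under library size alone (0.34, adjusted p = 0.0101) and upper-quartile factors (0.30, adjusted p = 0.0204). Those scalings moved the median of all genes from 0.02 to 0.13 and 0.09, and the share of called genes that were lower from 54.6% to 31.4% and 38.2%. With each library left out in turn, 4 members were called each time and 3242 to 5082 genes.

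In IgE+BSA against Control, Spry1 and Spry2 were called under every alternative. Spred1 turned to -0.0359 under library size alone, which moved the median of all genes from 0.02 to -0.15, and Etv5 turned to -0.0244 with DESeq2, -0.02505 with RLE factors, -0.17 with library size alone and -0.092 with upper-quartile factors. All genes called were 378, but 1227 with DESeq2, 618 without a filter, 1105 with 9 libraries and 144 with the replicate block. Leaving out each library in turn gave 2 to 3 members and 90 to 5207 genes, -0.16 to 0.32 for Spred1, 0.28 to 0.60 for Spred2 and -0.14 to 0.0915 for Etv5, which turned to -0.14 without Control replicate 1 and -0.0435 without IgE+BSA replicate 2. Control replicate 1 as the single Control library gave 4 members and 4892 genes, and 0.89 for both Spred1 and Spred2.

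In IgE+BSA+Luteolin against Control, DESeq2 and the fit of 9 libraries each called 1 member, Spry1 (0.62, adjusted p = 0.0237 and 0.0137). All genes called were 351, but 1379 with DESeq2, 811 without a filter, 1251 with 9 libraries and 212 with the replicate block. Leaving out each library gave 0 to 4 members and 2 to 6931 genes, 0.54 to 0.69 for Spry1, -0.92 to -0.47 for Spry2, -0.71 to -0.27 for Spred1, -0.32 to -0.0338 for Spred2. The upper ends of both counts came without Control replicate 1. Against that library alone, 2 members and 2447 genes were called, at 0.32 for Spred1, 0.27 for Spred2 and 0.47 for Etv5.

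The labels give replicate numbers but no shared source, and deviations of same-numbered libraries correlated at -0.255 to 0.307, so the block rests on a number alone. It changed no member's call but moved some counts of the lists. With stimulation it called 3 brakes higher in place of 4. With luteolin against Control it called 2 readouts lower in place of 3. With luteolin against IgE+BSA it called 8 partners and 9 core genes lower in place of 6 and 7. The longest transcript as length gave 11.2 CPM per kb for Spry1 and 42.1 for Spred1 in IgE+BSA. By Spearman's rho, 0 of the 3 most similar genes were shared for Spry1, Spry2 and Spry4, 1 for Spred1 and Etv5, and 2 for Spred2. The cause of these differences was not tested. Depth limits Spry4, whose luteolin libraries held 1 to 4 counts.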
